A study of Mus musculus with 8 samples.

Results

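The acetylcholine receptor and neuromuscular junction genes described here are 10 genes found by symbol, with a rule that uses no measured value: the muscle receptor subunits *Chrna1*, *Chrnb1*, *Chrnd*, *Chrne* and *Chrng*, and the clustering genes *Musk*, *Rapsn*, *Lrp4*, *Dok7* and *Agrn*. All 10 were found in the deposited table, each with 1 probe set (a group of short probes that reports on 1 transcript), of 22206 probe sets and 22664 different symbols in all. RNA came from the gastrocnemius (GAS) of male C57/Bl6j mice injected at 10 weeks of age and taken at 22 weeks, 12 weeks later. The muscle carried either an adeno-associated virus (AAV) with a short hairpin RNA (sh-RNA) that targets MYTHO, the product of *D230025D16Rik*, here called MYTHO-KD (4 arrays), or an AAV with a scramble sh-RNA (4 arrays), which went into the opposite leg. Both groups thus received virus and a hairpin driven by the U6 promoter, which is active in every cell type and does not by itself restrict knockdown to muscle fibres. The study's methods state that the virus was injected into the muscle and was of serotype 1, described there as having tropism for skeletal muscle cells. Signals were read on Clariom S Mouse arrays and are given on the log2 scale, where a difference of 1 is 2-fold.

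The neuromuscular junction is the synapse at which a motor axon excites a muscle fibre. The axon releases agrin, which binds LRP4 on the fibre and activates the kinase MuSK; MuSK, with its adaptor Dok-7, then acts through rapsyn to gather acetylcholine receptors under the nerve terminal. In adult muscle the receptor genes are read mainly in the few nuclei under the synapse and the receptor holds an epsilon subunit, while fetal or denervated fibres read receptor genes along their length and use the gamma subunit in its place.

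The deposited table gives an average and a standard deviation (SD) for each group, and these are printed as the authors' values; single arrays were not analysed here, so whether the arrays of the groups overlapped cannot be stated. Differences were tested with limma's moderated test computed from those averages and SDs. "Rose" and "fell" are used for an unadjusted p under 0.05, "passed" for either, and "called" for a change that in addition reached 2-fold, the rule of the study's methods; p-values printed with single genes are adjusted over all probe sets. Averages ran from 3.18 to 19.93 over all probe sets, the median SD was 0.27 in each group, and the medians of the groups differed by 0. The targeted gene averaged 10.02 (SD 0.37) in scramble and 7.71 (SD 0.66) in MYTHO-KD muscle, a remaining 20.2%. The tissue was checked on 10 skeletal muscle fibre genes, all marked as expressed in both groups, with no average below 17.58; *Acta1*, *Myh4* and *Atp2a1* stood at 19.93 in both groups, the highest value in the table, so that no rise could show there.

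Of the 10 genes, the alpha subunit *Chrna1* and the agrin receptor *Lrp4* rose in MYTHO-KD muscle, the kinase *Musk* fell, and the other 7 did not pass. *Chrna1* was the only one of the 10 called at 2-fold, and it was called higher. Over all 22206 probe sets, 1.12% were called, 0.860% higher and 0.257% lower. At an unadjusted p under 0.05 the count was 3 of 10, with 2 higher and 1 lower, against 12.0% of all probe sets (6.48% higher, 5.52% lower). With p-values adjusted by Benjamini-Hochberg across the whole table, 0 of the 10 had an adjusted p under 0.05 in limma, against 0.275% of all probe sets, and 0 of the 10 passed it in any other setting that was run. By sign alone 5 genes were higher and 5 lower, and their median difference was 0.00, against -0.01 over all probe sets. In a whole muscle, fewer cells of a type and less RNA in each cell cannot be told apart.

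**Figure D1:**
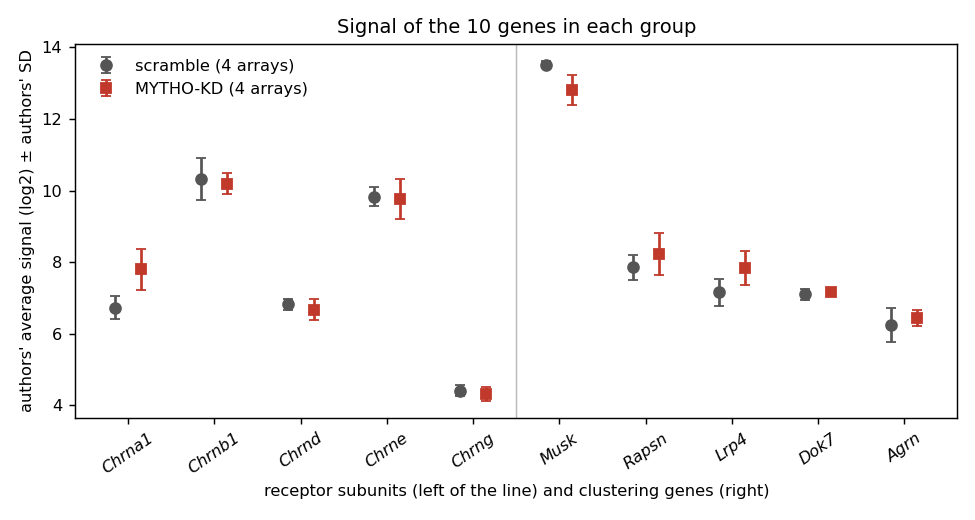
The authors' average log2 signal (vertical axis) of each of the 10 genes (horizontal axis) in scramble (circles) and MYTHO-KD (squares) GAS muscle, 4 arrays each; bars are the authors' SD. *Chrna1* moved from 6.73 to 7.80 and *Musk* from 13.52 to 12.81, while most other pairs lie within each other's bars; heights are not comparable between genes.

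Within the receptor, 1 of 5 subunit genes passed, and it rose. *Chrna1* (chr2:73563215-73580338, minus strand, mm10) codes for the alpha subunit, which carries the acetylcholine binding sites. It averaged 6.73 (SD 0.31) in scramble muscle and 7.80 (SD 0.57) in MYTHO-KD muscle, 4 arrays in each. The average plus 1 SD in scramble lay below the average minus 1 SD in MYTHO-KD. *Chrna1* rose by 1.07 on the log2 scale (SE 0.271, 95% interval 0.48 to 1.66; adjusted p = 0.141), which is 2.10-fold with an interval of 1.39-fold to 3.16-fold.

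The other 4 subunits were each lower by 0.15 or less, and none passed. *Chrnb1* (chr11:69784036-69795943, minus strand) codes for the beta subunit, through which rapsyn is thought to hold the receptor in clusters. Its average was 10.33 (SD 0.59) in scramble and 10.19 (SD 0.30) in MYTHO-KD, a difference of -0.14 (95% interval -0.74 to 0.46, adjusted p = 0.899). *Chrnd* (chr1:87190597-87200070, plus strand), the delta subunit, averaged 6.82 (SD 0.16) and 6.67 (SD 0.30), a difference of -0.15 (95% interval -0.56 to 0.26, adjusted p = 0.822). With the moderated variance, these intervals leave room for a change of signal of either sign, but not for one of 2-fold. Intervals under the other settings are not given here, and they need not exclude 2-fold.

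Neither the adult nor the fetal form of the exchanged subunit passed the test. *Chrne* (chr11:70614883-70619216, minus strand), the adult epsilon subunit, averaged 9.83 (SD 0.26) in scramble and 9.76 (SD 0.56) in MYTHO-KD, a difference of -0.07 (95% interval -0.64 to 0.50, adjusted p = 0.957). *Chrng* (chr1:87205811-87211835, plus strand), the fetal gamma subunit, averaged 4.41 (SD 0.15) and 4.31 (SD 0.19), a difference of -0.10 (95% interval -0.46 to 0.26, adjusted p = 0.875). *Chrng* was the only gene of the 10 that the table does not mark as expressed in both groups: it carries the mark in scramble and lacks it in MYTHO-KD. At a signal so near the lowest average of the table, 3.18, a fall could be hidden and a rise understated. The upper end of the interval, 0.26, is under 2-fold for the signal, but does not bound the change in RNA. The receptor subunits thus had a median difference of -0.10, with 1 of 5 past the test. Whether the change of *Chrna1* differs from those of the other subunits was not tested, since that needs single arrays.

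**Figure D2:**
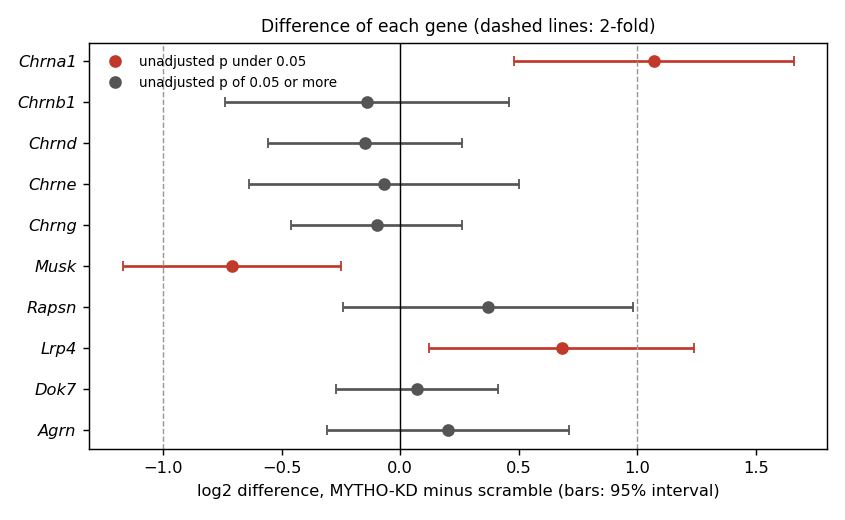
Difference in log2 signal, MYTHO-KD minus scramble (horizontal axis), for each of the 10 genes (vertical axis), with 95% intervals from limma's moderated variance on 4 arrays per group; red marks an unadjusted p under 0.05 and dashed lines mark 2-fold. The intervals of *Chrna1* (0.48 to 1.66), *Lrp4* (0.12 to 1.24) and *Musk* (-1.17 to -0.25) lie off 0, and the other 7 cross it.

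Among the clustering genes, the partners of the agrin receptor complex moved in opposite directions, with *Musk* lower and *Lrp4* higher in MYTHO-KD. *Musk* (chr4:58285960-58374303, plus strand), the kinase on which clustering depends, averaged 13.52 (SD 0.10) in scramble and 12.81 (SD 0.43) in MYTHO-KD muscle. The scramble average minus 1 SD lay above the MYTHO-KD average plus 1 SD. *Musk* fell by 0.71 on the log2 scale (SE 0.211, 95% interval of the difference -1.17 to -0.25; adjusted p = 0.199), to 61.1% of its scramble level.

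*Lrp4* (chr2:91457511-91513901, plus strand) codes for the agrin-binding partner of MuSK. Its average was 7.15 (SD 0.38) in scramble and 7.83 (SD 0.47) in MYTHO-KD, and the averages plus or minus 1 SD overlapped. *Lrp4* rose by 0.68 (SE 0.257, 95% interval 0.12 to 1.24; adjusted p = 0.322), 1.60-fold with an interval of 1.09-fold to 2.36-fold. *Lrp4* did not pass the unadjusted threshold without moderation of the variances or with unequal variances.

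Downstream and upstream of this complex no gene passed. *Rapsn* (chr2:91035620-91045729, plus strand) codes for the scaffold that binds the receptor from within the fibre; it averaged 7.85 (SD 0.36) and 8.22 (SD 0.58), a difference of 0.37 (95% interval -0.24 to 0.98, adjusted p = 0.663). *Dok7* (chr5:35056813-35087839, plus strand), the adaptor that activates MuSK from inside the fibre, averaged 7.10 (SD 0.16) and 7.17 (SD 0.11), a difference of 0.07 (95% interval -0.27 to 0.41, adjusted p = 0.915). *Agrn* (chr4:156165290-156197488, minus strand), whose neural form starts the pathway and which fibres and other cells also make, averaged 6.24 (SD 0.47) and 6.44 (SD 0.22), a difference of 0.20 (95% interval -0.31 to 0.71, adjusted p = 0.806). *Dok7* had the narrowest interval of the 10 genes, and that of *Rapsn* the widest.

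The clustering genes had a median difference of 0.20, with 1 of 5 risen and 1 fallen. For 7 of the 10 genes the 95% interval lay within 2-fold in both directions, as it did for 89.2% of all probe sets. The SD was larger in MYTHO-KD than in scramble for 7 of the 10, including *Chrna1*, *Musk* and *Lrp4*, while over all probe sets that held for 48.1%.

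Some of the 10 genes are neighbours. *Chrnd* and *Chrng* lie 5.74 kb apart on chromosome 1 in the same orientation, and neither passed. *Rapsn* and *Lrp4* lie 412 kb apart on chromosome 2, and *Chrne* and *Chrnb1* 819 kb apart on chromosome 11.

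The sequences before 3 subunit genes are shown because these genes stand for the alpha subunit that rose and for the fetal and adult subunits that did not pass. Myogenic factors such as MyoD and myogenin bind E-boxes, and factors of the ETS family such as GABP bind the N-box, an element known from receptor genes read at the synapse. The sequences are from RefSeq (GRCm38.p6, the patched form of mm10) and run 5′ to 3′ on the strand of the gene. Capitals mark E-boxes (CANNTG) and the N-box (CCGGAA), each searched on both strands. *Chrna1* (chr2:73580339-73580588, minus strand) and *Chrng* (chr1:87205561-87205810, plus strand) are given for 250 bases before the annotated start, and *Chrne* (chr11:70619214-70619444, minus strand) for 231, since the last 19 of its window lie inside the annotated gene.
*Chrna1*: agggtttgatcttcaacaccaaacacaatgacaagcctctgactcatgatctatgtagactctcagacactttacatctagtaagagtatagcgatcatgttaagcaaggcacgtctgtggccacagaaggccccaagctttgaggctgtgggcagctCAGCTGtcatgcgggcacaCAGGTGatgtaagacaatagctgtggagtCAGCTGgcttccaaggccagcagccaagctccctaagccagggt
*Chrng*: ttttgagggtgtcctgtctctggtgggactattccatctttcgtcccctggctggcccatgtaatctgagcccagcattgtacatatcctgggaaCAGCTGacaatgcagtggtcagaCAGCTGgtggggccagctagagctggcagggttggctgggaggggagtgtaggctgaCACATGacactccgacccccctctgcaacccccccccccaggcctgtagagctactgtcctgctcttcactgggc
*Chrne*: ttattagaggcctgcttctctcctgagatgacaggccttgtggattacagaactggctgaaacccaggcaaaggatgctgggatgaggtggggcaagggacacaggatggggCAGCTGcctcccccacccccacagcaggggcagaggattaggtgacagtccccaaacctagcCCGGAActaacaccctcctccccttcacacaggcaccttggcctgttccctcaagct

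*Chrna1* holds E-boxes that begin 92, 73 and 44 bases before its start, and *Chrng* holds them at 155, 132 and 75 bases. *Chrne* has 1 E-box at 138 bases and the N-box at 76 bases. The form CAGCTG occurs in both *Chrna1* and *Chrng*, and also in *Chrne* and *Musk*. The subunit that rose and the fetal subunit that did not pass therefore carry the same number of E-boxes in this window.

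In all, 7 of the 10 genes matched 9 windows of the 32851 in the RefSeq table; *Chrnd*, *Rapsn* and *Lrp4* had no entry. The windows of *Musk* and *Dok7* and 1 of those of *Agrn* lie mostly or wholly inside the annotated gene, since the start they are counted from is an inner one. At least 1 E-box stood in 7 of the 9 windows, against 66.2% of all windows, and CAGCTG in 4 of 9, against 13.0%. Windows with 3 or more E-boxes, a number chosen after the sequences were seen, were those of *Chrna1*, *Chrnb1*, *Chrng* and *Musk*, 4 of 9 against 12.2%. The N-box was in 1 of 9 windows, that of *Chrne*, against 12.0%. The E-box form CACCTG, which overlaps the general E-box, stood in 2 of 9 (17.2% of all), and the MEF2 core TAAAAATA or TATTTATA in 0 of 9 (3.9% of all). A match is a description of letters, not of a bound site. The 4 genes with 3 or more E-boxes comprise 1 that rose, 1 that fell and 2 that did not pass.

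**Figure D3:**
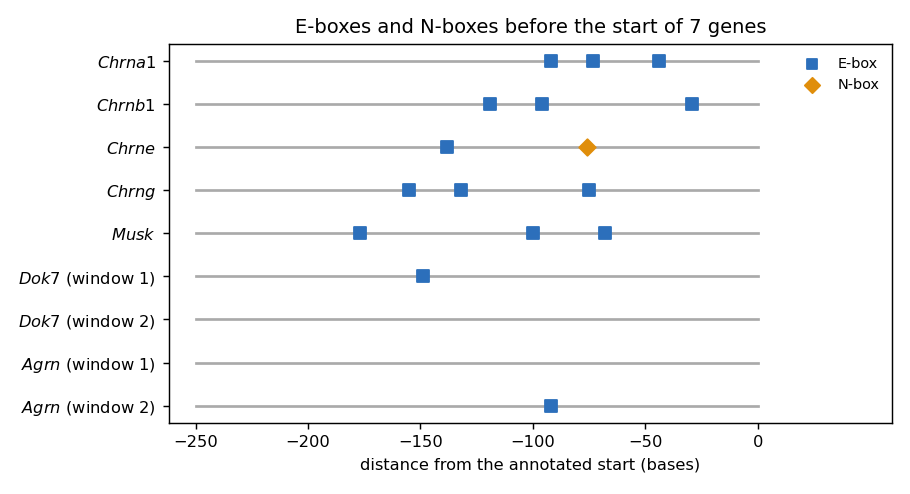
Positions of E-boxes (CANNTG, squares) and of the N-box (CCGGAA, diamond) in the 250 bases before the annotated start (horizontal axis, bases) for the 9 RefSeq windows of 7 genes (vertical axis). *Chrna1*, *Chrnb1*, *Chrng* and *Musk* have 3 E-boxes each, and only *Chrne* has an N-box.

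Beyond the 10 genes, the scaffold under the junction and its MuSK signalling partners were read from a list of 20 genes. Here 4 rose, 1 fell and 15 did not pass, with a median difference of 0.26 and no gene called. Of all probe sets, 6.48% rose and 5.52% fell. *Dtna*, which codes for alpha-dystrobrevin, averaged 15.20 in scramble and 15.68 in MYTHO-KD and rose by 0.48 (adjusted p = 0.314). *Sntb2*, a syntrophin gene, rose too (0.42, adjusted p = 0.373), as did *Nes* (0.53, adjusted p = 0.356), which codes for nestin, an intermediate filament found at the junction and in regenerating fibres, though not without moderation or with unequal variances. *Rac1*, a small GTPase that acts on actin downstream of agrin, fell by 0.37 (adjusted p = 0.35). *Utrn*, which codes for the synaptic dystrophin relative utrophin, differed by 0.46 (95% interval -0.02 to 0.94, adjusted p = 0.441) and did not pass. No gene of this list, or of any other list that follows except the macrophage and fibroblast lists, had an adjusted p under 0.05.

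The synaptic cleft and basal lamina list showed 4 of 15 genes risen (6.48% of all probe sets) and 0 fallen (5.52% of all). Its median was 0.31 and none was called. *Ache*, the acetylcholinesterase that ends transmission, averaged 9.66 (SD 0.60) in scramble and 10.60 (SD 0.47) in MYTHO-KD and rose by 0.94 (95% interval 0.27 to 1.61, adjusted p = 0.239). With unequal variances this probe set no longer passed. The other *Ache* probe set rose as well, by 0.50 (adjusted p = 0.383). *Colq*, the collagen tail that anchors the enzyme in the cleft, differed by 0.05 (95% interval -0.44 to 0.54). The other genes that rose code for basal lamina proteins found around the whole fibre: *Hspg2* or perlecan (0.94, adjusted p = 0.154), *Lama2* or laminin alpha-2 (0.87, adjusted p = 0.153) and *Nid1* or nidogen-1 (0.83, adjusted p = 0.182). *Lamb2*, a laminin chain concentrated at the synapse, differed by 0.41 (adjusted p = 0.439).

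Neuregulin and ETS factors control transcription in the nuclei under the synapse. In the list of 8 such genes, 1 rose and 1 fell (6.48% and 5.52% of all probe sets), with a median of 0.10. *Erbb2*, a neuregulin receptor chain, averaged 4.48 (SD 0.26) in scramble and 5.13 (SD 0.29) in MYTHO-KD and rose by 0.65 (adjusted p = 0.207). Both averages are dim, below the 30th percentile of mean signal over all probe sets, 5.72. The neuregulin gene *Nrg1* averaged 6.99 (SD 0.29) and 6.43 (SD 0.13) and fell by 0.56 (adjusted p = 0.234). *Erbb3* differed by -0.35 (adjusted p = 0.483), the ETS gene *Etv5* by 0.31 (adjusted p = 0.762) and *Gabpa*, which codes for the DNA-binding chain of GABP, by -0.03 (adjusted p = 0.977). In a list of 13 transcripts of synaptic nuclei, which shares *Ache*, *Colq*, *Musk*, *Chrne* and *Etv5* with the lists above, only *Ache* rose and only *Musk* fell; its median was 0.29, and *Lrtm1* differed by 0.68 (adjusted p = 0.42).

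*Chrna1* is among the genes that a fibre reads along its length when it loses its nerve or its activity, and 16 other genes linked to that response were read beside it. Of these, 3 rose, 1 fell and 12 did not pass, 2 were called, and the median difference was -0.04. Over all probe sets 12.0% passed and 1.12% were called. *Runx1*, a transcription factor induced by denervation, averaged 6.74 (SD 0.48) in scramble and 7.96 (SD 0.62) in MYTHO-KD and rose by 1.22 (adjusted p = 0.146). *Cdkn1a*, the p21 cell cycle inhibitor, rose by 1.75 (adjusted p = 0.2) with a wide interval of 0.61 to 2.89, and no longer passed with unequal variances. *Hdac9*, a repressor of MEF2 targets that is known to fall on denervation, rose by 0.58 (adjusted p = 0.307). The list thus mixes genes of different expected direction, so its counts and median do not measure the response as a whole.

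None of the remaining genes of the list rose. *Myog*, the myogenic factor that drives receptor genes after denervation, averaged 6.34 (SD 0.06) and 6.55 (SD 0.32), a difference of 0.21 (95% interval -0.19 to 0.61, adjusted p = 0.72). *Ncam1*, an adhesion molecule of denervated and new fibres, differed by 0.16 (95% interval -0.75 to 1.07), and *Gadd45a* by -0.06 (95% interval -0.49 to 0.37). *Dach2* differed by -0.34 (adjusted p = 0.618), *Myod1* by -0.40 (adjusted p = 0.577) and *Myf6* by -0.29 (adjusted p = 0.558). *Trim63*, the atrophy-linked ubiquitin ligase MuRF1, fell by 0.44 (adjusted p = 0.381). The fetal subunit *Chrng*, another gene of this programme, is described above with a difference of -0.10.

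**Figure D4:**
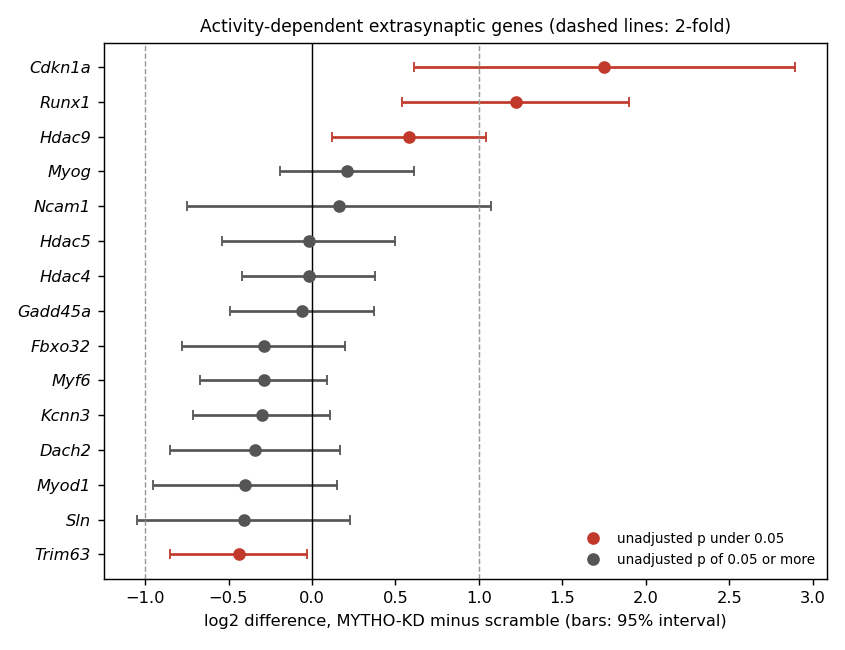
Difference in log2 signal, MYTHO-KD minus scramble (horizontal axis), with 95% intervals for 15 of the 16 genes linked to loss of nerve or activity in the fibre (vertical axis, ordered by difference); red marks an unadjusted p under 0.05 and dashed lines mark 2-fold. *Cdkn1a* (1.75) and *Runx1* (1.22) lie past 2-fold, and *Myog* (0.21), *Ncam1* (0.16) and *Gadd45a* (-0.06) have intervals that cross 0.

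Nerve, glial and other cell markers were read beside these results. In the motor axon and nerve terminal list 2 of 12 genes rose and 1 was called higher, with a median of 0.10. Of all probe sets, 6.48% rose, 5.52% fell and 0.860% were called higher. *Uchl1*, an abundant neuronal ubiquitin hydrolase that is also made outside neurons, averaged 5.51 (SD 0.21) and 6.51 (SD 0.72) and was called higher, at the 2-fold limit, by 1.00 (adjusted p = 0.204), though it did not pass with unequal variances. *Nefl*, a neurofilament, rose by 0.53 (adjusted p = 0.393) but did not pass without moderation or with unequal variances, and *Stmn2* differed by 0.26 (adjusted p = 0.656). *Chat* and *Slc18a3*, which make and load acetylcholine in the motor neuron, were marked as not expressed in both groups; the cell bodies that hold most of their RNA lie in the spinal cord. In the Schwann cell list 0 of 10 genes passed limma at an unadjusted p under 0.05, with a median of -0.09; *Gfap* differed by -0.55 (adjusted p = 0.422), *Prx* by -0.32 (adjusted p = 0.619) and *Mbp* by -0.42 (adjusted p = 0.672).

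Markers of other cells moved with the group. All 10 macrophage genes were higher in MYTHO-KD, 7 of them past the test and 3 called. Their summed signal went from 11.04 to 12.28 (log2 of the sum). *Lyz2*, which averaged 9.17 in scramble and 11.11 in MYTHO-KD, was the brightest of them in MYTHO-KD and weighs most in that group's sum. Over all probe sets 10416 of 22206 were higher, 6.48% rose and 0.860% were called higher. All 10 fibroblast genes were higher, 5 past the test and 4 called, and their summed signal went from 16.68 to 17.07. That sum mostly reflects *Dcn*, which averaged 16.58 in scramble and 16.86 in MYTHO-KD and did not pass. The called macrophage genes were *Cd68*, which rose by 2.53 (adjusted p = 0.0182), *Lyz2*, by 1.94 (adjusted p = 0.0277), and *C1qb*, by 1.27 (adjusted p = 0.0754). The called fibroblast genes were *Bgn*, which rose by 1.94 (adjusted p = 0.029), *Lum*, by 1.49 (adjusted p = 0.0443), *Col3a1*, by 1.43 (adjusted p = 0.102), and *Fn1*, by 1.35 (adjusted p = 0.154). Fibroblasts and other cells of the connective tissue also make *Hspg2*, *Nid1* and *Lama2*, and *Runx1* and *Cdkn1a* are read in many cell types. Among 10 genes of new fibre formation, 2 were called higher: *Mymk* or myomaker, which fuses myoblasts and is listed in the table as *Tmem8c*, by 1.77 (adjusted p = 0.0749), and the embryonic myosin *Myh3*, by 1.27 (adjusted p = 0.366). *Myh3* did not pass without moderation, with a trend and robust prior or with unequal variances. The perinatal myosin *Myh8*, also in this list, stood at 19.93 in both groups, the highest value in the table, so that no rise could show there. Of the fibre genes only *Myh1*, a fast myosin, rose (0.59, adjusted p = 0.23); *Actn3* differed by -0.23 (adjusted p = 0.65) and *Pvalb* by -0.15 (adjusted p = 0.76). The summed signal of the fibre genes, 22.78 in scramble and 22.76 in MYTHO-KD, includes the genes at the highest value of the table and so cannot show whether fibre RNA was stable. New fibres read *Chrna1* too, and the part of each of these cell populations in the differences of *Chrna1*, *Lrp4* and *Musk* was not tested.

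**Figure D5:**
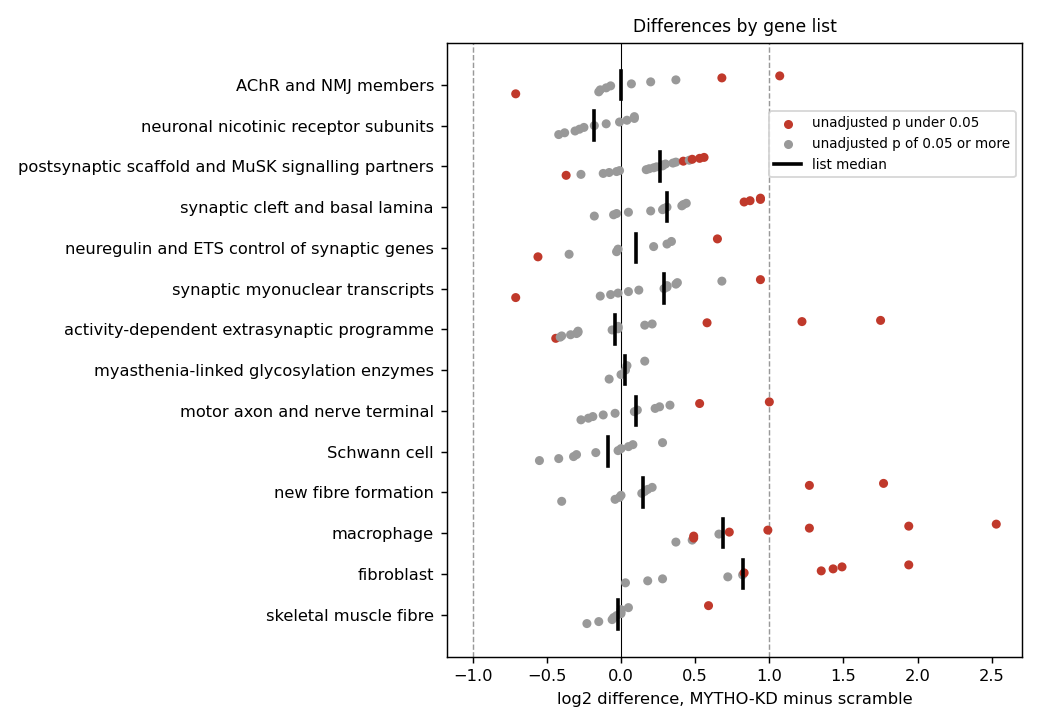
Difference in log2 signal, MYTHO-KD minus scramble (horizontal axis), for each gene of 14 lists (vertical axis, 1 point per gene); red marks an unadjusted p under 0.05, black bars mark list medians and dashed lines mark 2-fold. The 10 acetylcholine receptor (AChR) and neuromuscular junction (NMJ) genes have a median of 0.00, the macrophage and fibroblast lists have medians of 0.69 and 0.82, and some genes belong to more than 1 list.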

How the data were processed

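The authors hybridized GAS RNA to Clariom S Mouse arrays and deposited 1 table of log2 group averages, SDs and expression marks for 22206 probe sets. Its other columns hold the authors' own fold changes, p-values and false discovery rates, which were not used. Per the labels the arrays were processed with RMA in Affymetrix Expression Console, whereas the study's methods name SST-RMA in the Transcriptome Analysis Console. Either way background correction and normalization assume similar signal distributions, and the kind of average is not stated; if it is a Tukey biweight, the p-values here are too low. Arrays have no sequencing depth, and 4 arrays per group limit precision. The study's methods put the scramble virus in the opposite leg of the injected mice, so arrays of the groups can share mice. Nothing states how many mice gave the arrays or which arrays share a mouse. The test was unpaired and treated the 8 arrays as independent, so p-values measure the spread between these arrays.

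Groups came from the sample labels. The planned limma model was computed from averages and SDs with squeezeVar (limma 3.58.1, R 4.3.3) over all 22206 probe sets: 6 residual degrees of freedom, prior SD 0.284, prior degrees of freedom 5.85, two-sided p-values, Benjamini-Hochberg adjustment and 95% intervals. The procedure was tested on simulated data. For genes with several probe sets that with the highest mean was used. Promoter letters were searched with Python 3.11.15; tables and plots used pandas 2.3.3 and matplotlib 3.10.9. Alternatives were no moderation, a trend with robust prior, unequal variances, leaving out dim probe sets (below the 30th percentile of mean signal, 5.72), probe sets marked expressed in both groups, other probe set choices, centring and other thresholds. The genes and lists were chosen with earlier results of these data known. All 10 genes are named; of each other list, those called and the 3 with the lowest p are named, and further names were chosen by role after their values were seen. A few listed genes count in the list totals but are not reported here by name. Summed signals are log2 of the sum of 2 to the power of each average. Coordinates are those of the table (mm10).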

Additional observations from a re-analysis of the deposited data

How the results depend on the processing

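Every alternative used the same group averages, so the direction of *Chrna1*, *Musk* and *Lrp4* could not change. Centring shifted nothing, since the group medians differed by 0. Each of the 10 genes had 1 probe set, so taking the dimmest probe set also repeated the main result for them. *Chrna1* was the only one of the 10 genes called at 2-fold in each alternative. Lowering the fold to 1.5 with an unadjusted p under 0.05 gave 3 of 10 called, since *Musk* and *Lrp4* then counted. The number at an unadjusted p under 0.05 went from 3 to 2 without moderation and with unequal variances, where *Lrp4* did not pass. Over all alternatives the limma or plain p of *Chrna1* ran from 0.00116 to 0.0241 (adjusted p 0.0823 to 0.501), that of *Musk* from 0.0023 to 0.0422 (adjusted 0.112 to 0.541) and that of *Lrp4* from 0.018 to 0.0674 (adjusted 0.267 to 0.581). Of 497 values of 63 genes named with a difference, 483 kept their side of the threshold, 12 no longer passed an unadjusted p under 0.05 (*Lrp4*, *Nes*, *Ache*, *Cdkn1a*, *Uchl1*, *Nefl* and *Myh3*), 2 newly passed (*Lrtm1* and *Gfap*) and 0 of those that passed reversed. The 483 include values that repeat the main result by construction: those after centring, and those of the dimmest probe set where a gene has only 1. A reversal could come only from a second probe set, since the group averages stayed the same. *Chrng* was left out by the filter on dim probe sets and by the filter on expression marks, so 9 of the 10 genes were tested there. Leaving out each array in turn was not run, because it needs single arrays. No paired analysis was possible because the table analysed holds group averages, and legs could not be matched to mice. Signals near the floor, such as that of *Chrng*, can hide a fall and understate a rise.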

Other observations

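The neuronal relatives of the muscle receptor and a group of enzymes behind inherited myasthenia were also read. The share of all probe sets was 12.0% at an unadjusted p under 0.05 and 0.275% at an adjusted p under 0.05 in limma. The 95% interval lay within 2-fold for 89.2% of all probe sets, so the counts below lie near these shares. Of 11 neuronal nicotinic receptor subunit genes, 0 passed limma at an unadjusted p under 0.05 and 0 at an adjusted p under 0.05; 8 were lower and 3 higher in MYTHO-KD, with a median difference of -0.18 and every 95% interval within 2-fold. The lowest p among them was that of *Chrnb2*, which averaged 4.82 (SD 0.14) in scramble and 4.44 (SD 0.33) in MYTHO-KD, a difference of -0.38 (adjusted p = 0.458). *Chrna2* differed by -0.42 (adjusted p = 0.499) and *Chrnb4* by -0.31 (adjusted p = 0.573). Of the 5 glycosylation enzyme genes whose loss causes congenital myasthenia, 0 passed at either threshold, the median difference was 0.03, and all intervals lay within 2-fold. *Gmppb* differed by 0.16 (adjusted p = 0.772), *Gfpt1* by -0.08 (adjusted p = 0.944), *Alg14* by 0.04 (adjusted p = 0.971) and *Dpagt1* by 0.03 (adjusted p = 0.982).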
